A study of Mus musculus with 32 samples.

Results

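In mouse synovium, 69 of 1178 listed genes were low in MMS D14 and near or above Control in the mean of R1 and R2. They were chosen by L, the log2 of a group's mean FPKM plus 1 minus the same log2 in Control. FPKM is a read level per length of transcript and of library depth. A member had L at or below -1 in MMS D14, and the mean L of R1 and R2 was at most 0.2 of the MMS D14 value. R1 and R2 were not bounded singly, and no upper bound was set. L in R1 or R2 was at or above 0.5 for 11 members and at or below -0.5 for 5, with Retnla in both counts. The differences of MMS D14, R1 and R2 from Control chose the genes, so they are given as a description without a test. Of the 645 genes past the first threshold, 576 did not pass the second.

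The study sequenced RNA of synovium and cartilage from C57BL/6 mice, in MMS model animals and in controls. Synovium had 3 samples in each of 6 groups: MMS D3, MMS D7, MMS D14, R1, R2 and Control. Cartilage had 2 samples in each of 7 groups, the same ones and MMS D28. The labels name no genotype, age or agent, leave the codes MMS, R1 and R2 unexplained, give no unit for the D numbers, and are silent on the hour of tissue collection. Whether replicates came from separate animals is not given either, and the p-values cover the spread between these samples only.

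Synovium is the membrane that lines the joint. Its surface is a lining of fibroblasts and resident macrophages, and beneath it lie fat, blood vessels, nerves and looser fibroblasts. Many tissues also run a circadian clock, in which activators at E-box sites drive the PAR-domain factors Dbp, Tef and Hlf and the repressors Per3 and Nr1d1. The PAR-domain factors then act at D-box sites, where Nfil3 acts as their repressor.

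The synovium table lists selected genes, by a selection that is not stated, and it does not give the depth of a library. All 26 genes of a fat-cell list were present, against 5 of 11 genes of a lining fibroblast list. Summed FPKM of the fat-cell list was 7071 to 11048 in MMS D14, 19247 to 21281 in R1 and 18637 to 21351 in R2, against 39118 to 46650 in Control. Of its 26 genes, 25 were lowered in MMS D14 and 0 were members. The 9 listed interferon response genes were likewise all lowered with 0 members. In bulk tissue, fewer cells of a type and less RNA per cell cannot be told apart. Replicate 3 of MMS D3, MMS D7, MMS D14, R2 and Control stood apart from the other 13 libraries, with Gm2023 at 1.71 to 3.36 FPKM against 12.6 to 56.2 FPKM in the others. Replicate 3 of R1 was not among them.

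Members were spread widely in level, with Control means of 5.64 to 1076 FPKM and a median of 30.1 FPKM. The median over all listed genes was 16.9 FPKM. Median L of the members was -0.61 in MMS D3, -0.81 in MMS D7 and -1.32 in MMS D14, and then -0.05 in R1 and -0.08 in R2. Over all listed genes the medians were -0.33, -0.65 and -1.08 in the MMS groups and -0.38 in both R1 and R2. The 576 other lowered genes had median L of -0.77 in R1 and -0.74 in R2. Every MMS D14 sample lay below every Control sample for 67 of the 69 members, where 69% of all listed genes did so. The exceptions were Dbp and Ccl27a. In R1, 9 members lay wholly below Control and 8 wholly above, against 51.3% and 21.8% of all genes. In R2, the counts were 9 and 4, against 46.8% and 18.6% of all genes.

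**Figure D1:**
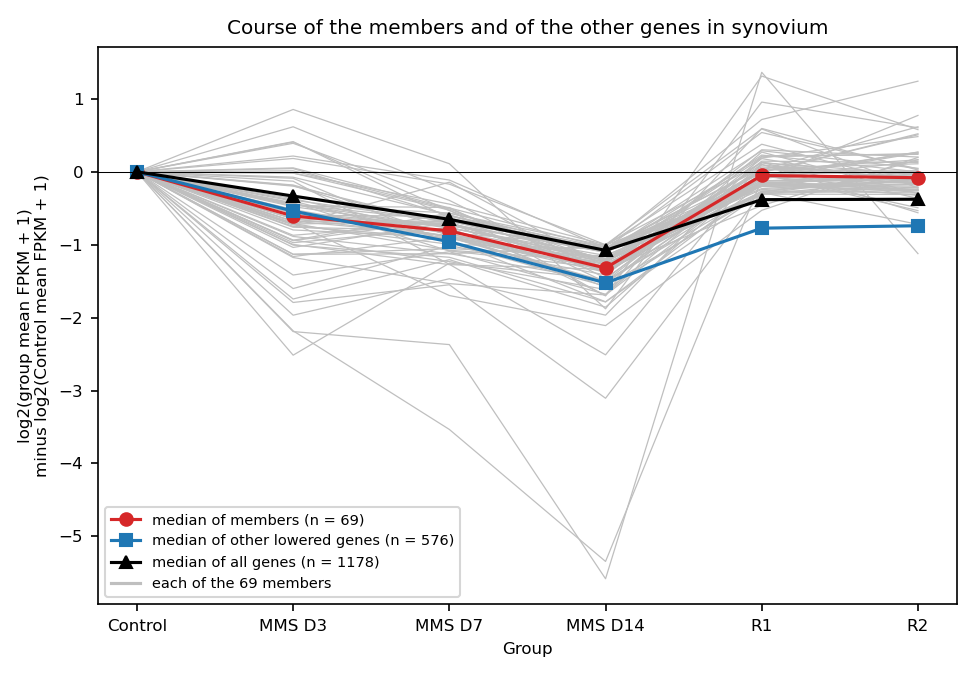
L of each of the 69 members (grey lines) by group, with the medians of the members, of the 576 other lowered genes and of all 1178 genes. The members' median ends at -0.05 in R1 and -0.08 in R2, and that of the other lowered genes at -0.77 and -0.74.

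**Figure D2:**
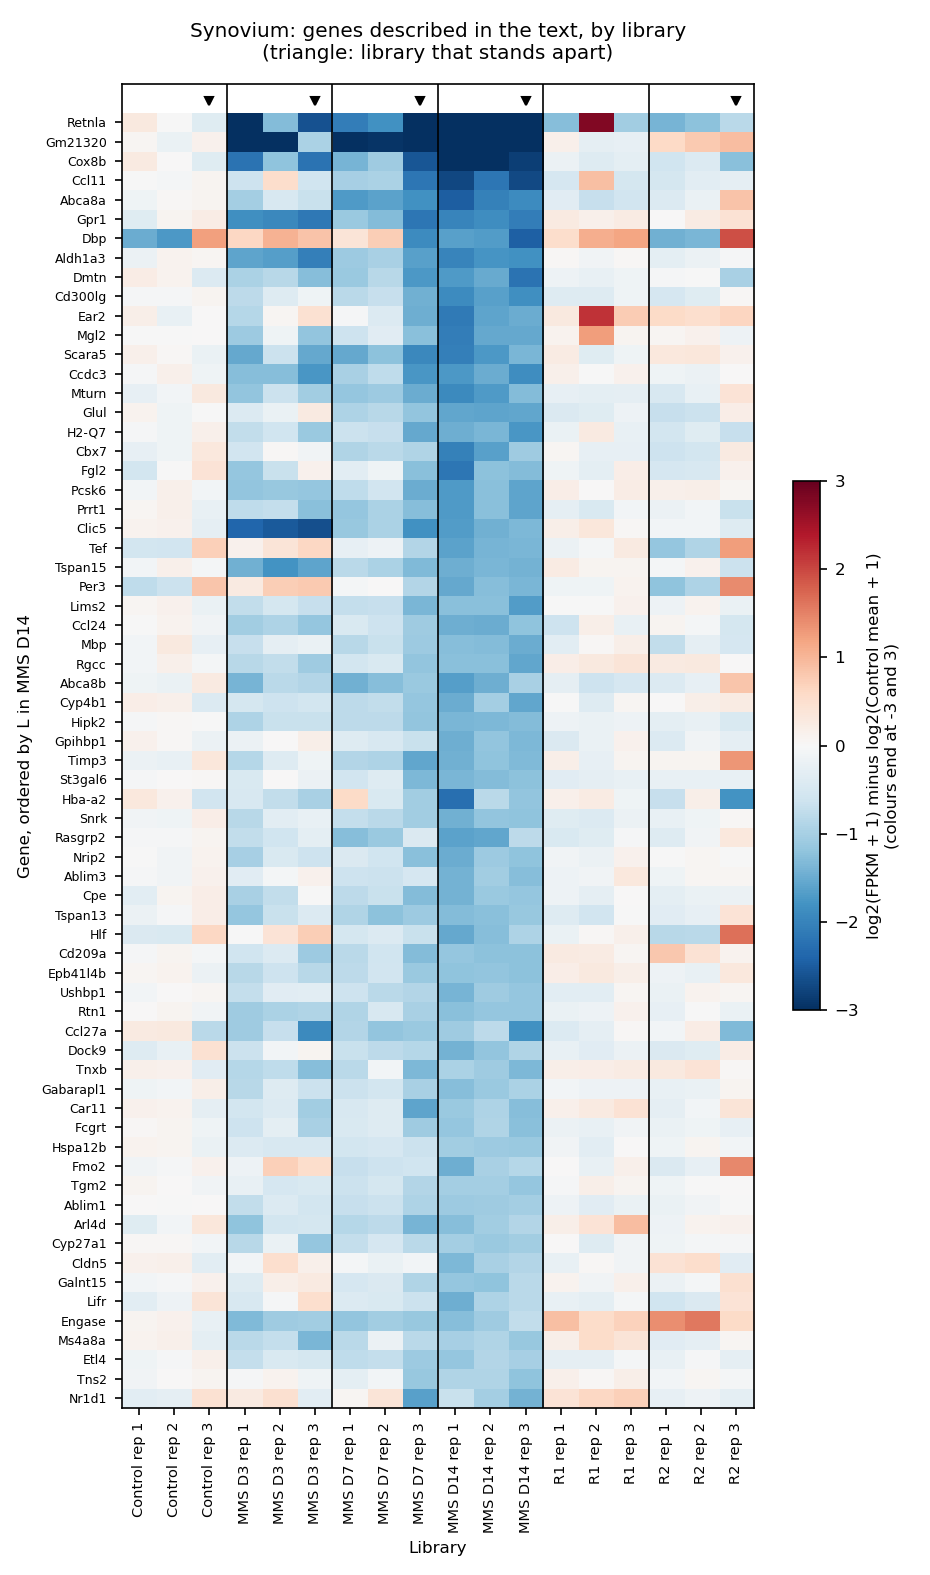
Members described in the text (rows, ordered by L in MMS D14) in each of the 18 synovium libraries (columns), as log2(FPKM + 1) minus that of the Control mean. Blue is lower and red higher, and triangles mark the 5 libraries that stand apart, where the rows of Dbp, Tef, Per3 and Hlf are redder in Control and R2 than in the other libraries of those groups.

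Values close to the thresholds were as follows. Nr1d1, Tns2 and Etl4 were just inside the first threshold, with L in MMS D14 of -1.0004, -1.0011 and -1.0057. Kank3, Mill2 and Snx21 were just outside it at -0.9974, -0.9945 and -0.9887. Glul, Ccl27a and Mbp kept 0.196, 0.195 and 0.192 of their MMS D14 value and were just inside the second threshold. Nme3, Irf4 and the predicted gene Gm46840 kept 0.201, 0.202 and 0.203 and were just outside.

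The MMS D3 and MMS D7 samples were not used to choose the genes, but the Control samples they are set against were. At MMS D3, 44 of 69 members had fallen against Control and 0 had risen by limma at an adjusted p under 0.05, where 39.6% of all 1178 genes were called lower and 16.3% higher. The median log2 change was -0.62 for the members and -0.34 for all genes. At MMS D7, 58 members had fallen and 0 had risen, against 61.6% of all genes called lower and 24.1% higher, and the medians were -0.82 and -0.65. Of these 44 and 58 calls, 28 and 42 held under all 14 alternatives. Among the 14, the fit with no filter repeated the main fit, since the filter removed no gene. Of the 576 other lowered genes, 375 (65.1%) lay wholly below Control at MMS D3 and 547 (95%) at MMS D7. The members counted the same way were 44 (63.8%) and 57 (82.6%), where all genes gave 42.4% and 61.8%.

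The median over all listed genes itself was lower by 0.12 in MMS D3, 0.28 in MMS D7 and 0.52 in MMS D14, on the log2 scale. It was also lower by 0.19 in R1 and 0.22 in R2. Relative to that shift, 55, 65 and 69 members were lower than Control in MMS D3, MMS D7 and MMS D14. In R1 and R2, by contrast, 53 and 52 of them were higher relative to it, where 40 and 46 were lower as deposited. With each sample centred, 35 members were called lower at MMS D3 and 44 at MMS D7, against 30.6% and 46.9% of all genes. The choice of members moved with this setting too, since the rule on centred values gave 27 genes, of which 19 were among the 69.

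The course through the MMS groups was not the same in all members. The group mean was lowest in MMS D14 for 65 of them, and for 52 it was lower at each step through MMS D3, MMS D7 and MMS D14. The lowest mean was in MMS D3 for the other 4, Clic5, Tspan15, Gpr1 and Engase. L in MMS D3 was at least 0.5 of that in MMS D14 for 33 members, while for 18 it was under 0.2 of it or above Control.

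The MMS D7 and MMS D3 samples did not choose the genes. The fit took its spread from all 6 synovium groups, however, and these include the groups that did. In MMS D7 against MMS D3, 8 members were lower and 3 higher. That is 11.6% and 4.35% of the members, where 18.3% of all genes were called lower and 12.1% higher. The 3 higher members were Clic5, Tspan15 and Aldh1a3. The 8 lower ones were Glul, Abca8a, Gpihbp1, Ablim3, Galnt15, Ccl11, St3gal6 and Fmo2. With each sample centred the calls were 2 lower and 3 higher, against 9.51% and 16.1% of all genes. With only the 2 groups in the fit, they were 3 lower and 1 higher, against 3.65% and 6.2% of all genes. The count also depended on single libraries. Without MMS D7 replicate 3, the calls were 2 lower and 6 higher, against 7.13% and 7.98% of all genes. Without MMS D3 replicate 1 they were 17 lower and 3 higher, against 32.1% and 18.6% of all genes, and without MMS D7 replicate 1 they were 5 and 1, against 13% and 9%. Without MMS D3 replicate 2 or MMS D3 replicate 3 they were 1 and 1, against 5.94% and 8.66% of all genes in the one fit and 6.28% and 6.2% in the other.

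A set of 5 members belongs to the circadian clock, out of 10 listed clock genes: Dbp, Tef, Hlf, Per3 and Nr1d1. The promoters of clock members are shown because the factors of this group act at short known sites. They come from RefSeq on GRCm38.p6, run from 250 bases before to 50 after a start site, and were given for 53 of the 69 members. Capitals mark 3 of the motifs searched: the E-box CACGTG, the D-box TTATGTAA and the cyclic AMP response element TGACGTCA (both strands, no overlap in letters between them in these windows). Per3 lies at chr4:151044616-151044915 on the minus strand, Tef at chr15:81802423-81802722 on the plus strand, Hlf at chr11:90390868-90391167 on the minus strand and Dbp at chr7:45704997-45705296 on the plus strand.
Per3: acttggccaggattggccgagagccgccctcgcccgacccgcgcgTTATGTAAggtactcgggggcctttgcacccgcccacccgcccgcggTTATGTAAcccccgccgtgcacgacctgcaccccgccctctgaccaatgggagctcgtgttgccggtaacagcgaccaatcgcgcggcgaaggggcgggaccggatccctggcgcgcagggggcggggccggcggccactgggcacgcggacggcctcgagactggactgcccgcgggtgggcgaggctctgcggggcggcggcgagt
Tef: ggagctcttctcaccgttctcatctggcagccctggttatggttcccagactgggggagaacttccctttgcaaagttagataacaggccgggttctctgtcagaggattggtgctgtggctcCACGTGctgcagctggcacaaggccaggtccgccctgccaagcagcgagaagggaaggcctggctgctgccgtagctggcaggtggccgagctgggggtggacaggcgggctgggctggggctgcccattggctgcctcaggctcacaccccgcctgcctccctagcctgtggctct
Hlf: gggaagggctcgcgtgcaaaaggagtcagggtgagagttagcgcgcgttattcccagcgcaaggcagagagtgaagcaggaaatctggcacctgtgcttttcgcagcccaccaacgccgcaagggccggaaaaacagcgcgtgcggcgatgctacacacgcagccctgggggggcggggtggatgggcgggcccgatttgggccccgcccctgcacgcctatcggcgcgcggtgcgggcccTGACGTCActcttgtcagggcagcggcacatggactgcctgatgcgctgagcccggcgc
Dbp: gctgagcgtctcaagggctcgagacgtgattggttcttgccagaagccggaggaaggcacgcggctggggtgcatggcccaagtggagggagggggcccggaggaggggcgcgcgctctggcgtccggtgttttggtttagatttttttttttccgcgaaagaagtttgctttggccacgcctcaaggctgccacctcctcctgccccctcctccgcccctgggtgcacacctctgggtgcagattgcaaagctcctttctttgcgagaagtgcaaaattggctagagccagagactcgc
The Per3 window holds 2 D-boxes, at 205 and 158 bases before the start site. Tef has an E-box 127 bases before the start shown and another 138 bases before its other RefSeq start. Hlf has the cyclic AMP response element 9 bases before its start. The Dbp window, like that of Nr1d1, holds none of these 3 motifs, which says only that these letters are not in these windows.

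Across members with a promoter, the D-box was in 1 of 53 (1.89%), against 1.11% of 27025 genes with a promoter in the table and 1.46% of the listed synovium genes. The E-box was in 5 of 53 (9.43%), which were Abca8a, Abca8b, Dock9, Etl4 and Tef, against 8.09% of all genes and 11.2% of the listed synovium genes. The cyclic AMP response element was in Arl4d, Hlf and Mturn, 3 of 53 (5.66%), against 2.03% of all genes and 2.92% of the listed synovium genes. The AP-1 letters TGANTCA, also searched, were in 8 of 53 (15.1%), against 8.97% of all genes and 8.75% of the listed synovium genes. A match describes letters and not a bound site, and these shares were not tested.

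Dbp, a PAR-domain activator, measured 16.6, 16.1 and 8.97 FPKM in MMS D14, against 18.4, 15.6 and 127.1 FPKM in Control. It was at 83.7, 112.5 and 97.7 FPKM in MMS D3 and at 70.8, 89.6 and 13.8 FPKM in MMS D7. In R1 it was at 78.4, 114.6 and 122.5 FPKM, and in R2 at 19.1, 20.2 and 207.0 FPKM. Only Control replicate 3 lay well above the MMS D14 samples, and the low MMS D7 value and the high R2 value were also those of replicate 3, all among the libraries that stand apart.

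Per3, a period-family repressor, was high in the same libraries of Control and R2 as Dbp. Its level was 3.16, 3.95 and 3.65 FPKM in MMS D14, against 6.06, 6.70 and 20.3 FPKM in Control. In R2 it was 4.19, 5.37 and 31.0 FPKM. Both replicate 3 libraries were again the high ones, and the MMS D14 samples lay below all others of these groups. Tef was at 13.8, 16.1 and 16.5 FPKM in MMS D14, against 30.1, 29.2 and 73.6 FPKM in Control. In R2 Tef was at 19.1, 23.1 and 107.0 FPKM. Hlf, the third PAR-domain factor, was at 1.30, 1.76 and 2.51 FPKM in MMS D14, against 3.92, 3.84 and 9.16 FPKM in Control. The R2 samples gave Hlf 2.72, 2.79 and 19.8 FPKM. For Tef and Hlf, replicates 1 and 2 of R2 thus lay below every Control sample, while replicate 3 lay above every one.

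Nr1d1, which encodes the haem-binding nuclear receptor REV-ERBα, had a different replicate 3 pattern. It was at 74.8, 58.5 and 44.1 FPKM in MMS D14, against 95.8, 98.8 and 163.1 FPKM in Control. R1 gave 159.2, 183.3 and 196.9 FPKM and R2 101.0, 107.8 and 97.5 FPKM. The R2 samples lay close together here, with replicate 3 the lowest of them. Reads of Nr1d1 may be shared with Thra on the other strand, and those of Dbp with Sphk2, since exons overlap and the counting is not stated to use strand.

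Nfil3, the D-box repressor and no member, ran the other way in the same libraries. It was at 23.6, 21.7 and 25.3 FPKM in MMS D14, against 12.3, 10.7 and 3.29 FPKM in Control. In R2 it was at 14.3, 12.7 and 4.09 FPKM. The lowest Nfil3 values were therefore in the replicate 3 libraries of Control and R2, which had the highest Dbp.

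**Figure D3:**
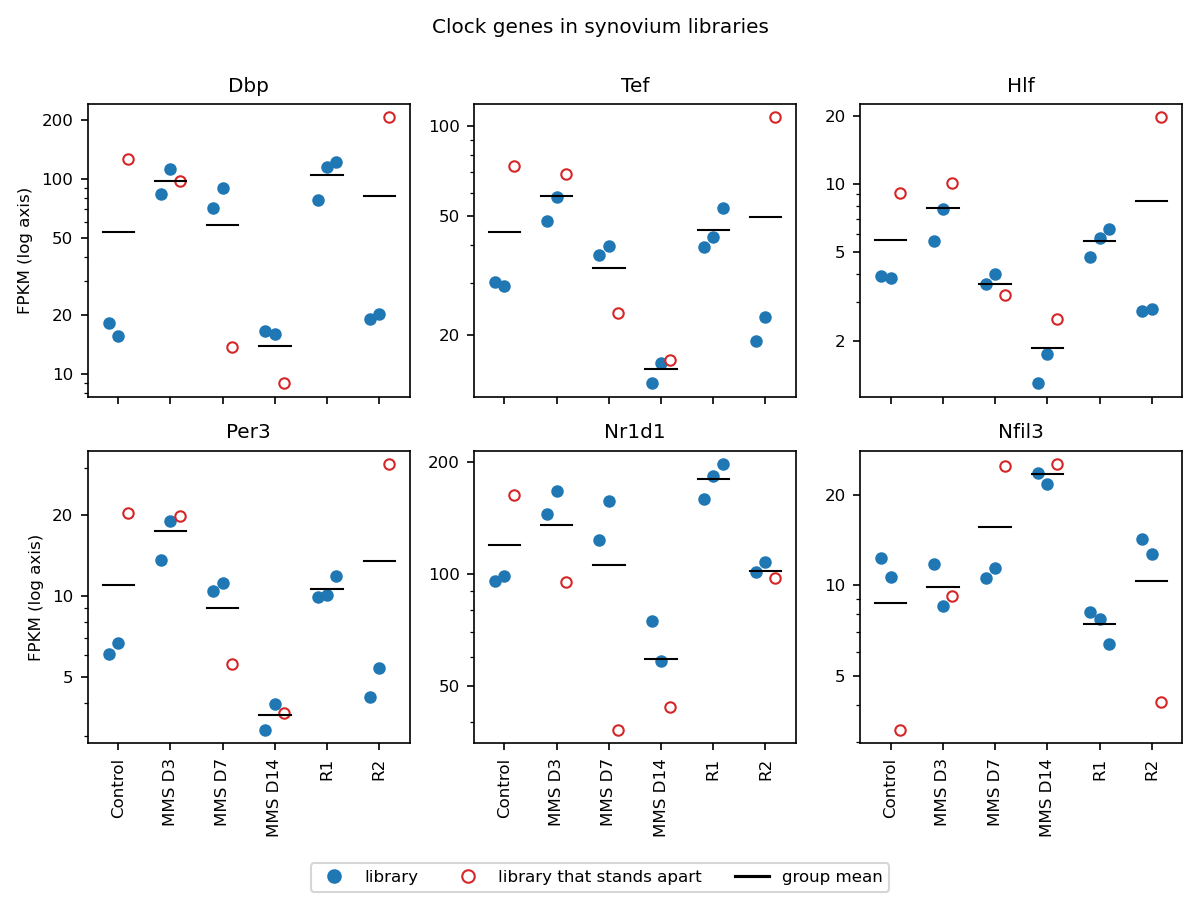
FPKM (log axis) of the 5 clock members and of the non-member Nfil3 in each synovium library, by group, with the group mean as a bar. Open red circles are the libraries that stand apart: Dbp reaches 127.1 and 207.0 FPKM in those of Control and R2, and Nfil3 is at 3.29 and 4.09 FPKM there.

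No clock member was called at MMS D3, MMS D7, MMS D7 against MMS D3 or R2 against R1 with all libraries, and their log2 changes at MMS D3 ran between 0.19 and 1.51. The 5 libraries that stand apart were then treated in 2 ways, both added after seeing the data. With a term for them in the fit, 0 members were called higher at MMS D3 or MMS D7 and 45 and 59 lower, against 45% and 63.4% of all genes, so no clock member was called higher. Leaving these libraries out left 2 samples in each of their groups. It took away Control replicate 3, the highest Control library for all 5 clock members. The calls against Control below depend on that omission and are no separate support. In these fits all 5 clock members were called higher in MMS D3 than in Control. The log2 changes were 2.45 for Dbp, 1.21 for Per3, 0.81 for Tef, 0.67 for Nr1d1 and 0.64 for Hlf. In MMS D7, Dbp, Per3 and Nr1d1 were higher than in Control, by 2.17, 0.68 and 0.51, and Hlf was lower in MMS D7 than in MMS D3 (log2 change -0.67). The fits without these libraries called 66.8% of all genes at MMS D3, 84.5% at MMS D7 and 15.8% in MMS D7 against MMS D3, in either direction.

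R2 and R1 samples took part in choosing the genes through their mean, so the members' differences between them are given as a description. With all libraries 0 of the 69 members and 0% of the 1178 genes were called by limma, and 6 members had an unadjusted p under 0.05. All genes were not counted at that unadjusted p, so the 6 say nothing about the members as a set. With a term for the 5 libraries, 0 members and 0% of genes were called. With the 5 libraries left out, 14 genes (1.19%) were called from 2 R2 samples and 3 R1 samples. The omission took away R2 replicate 3, the highest R2 library for Dbp, Tef, Per3 and Hlf, so their calls depend on it. Among the 14 genes were the 5 clock members, lower in R2 than in R1. Their log2 changes were -2.33 for Dbp, -1.06 for Tef, -1.01 for Per3, -0.81 for Hlf and -0.77 for Nr1d1. The clock genes Per1, Nr1d2 and Bhlhe41 were lower there too, with changes of -1.01, -0.92 and -1.35, and Nfil3 was higher by 0.79. Engase was the remaining member, higher by 0.78.

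Membership of the clock genes rested on Control replicate 3. Without it, L in MMS D14 was -0.28 for Dbp, -0.69 for Per3, -0.71 for Nr1d1, -0.77 for Hlf and -0.89 for Tef, and none of the 5 passed the first threshold. Without all 5 libraries that stand apart, these values ran between -0.95 for Hlf and -0.06 for Dbp. What sets these libraries apart is not given in the labels, and its part in the clock values was not tested.

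The lining fibroblast members had fallen steeply by MMS D3. Clic5, a chloride intracellular channel protein and lining marker, was at 22.7, 20.5 and 18.9 FPKM in MMS D3 and 55.8, 63.0 and 34.2 FPKM in MMS D7, against 132.4, 134.8 and 101.7 FPKM in Control. In MMS D14 it was at 38.0, 44.9 and 48.0 FPKM, and R1 and R2 gave 125.7 to 155.1 and 94.3 to 116.3 FPKM. No MMS sample reached the lowest Control sample, and every MMS D7 sample lay above every MMS D3 sample. Clic5 was lower at MMS D3 than in Control by 2.51 on the log2 scale (change -2.51 ± 0.20, SE), with a limma adjusted p of 1.37e-07. It was higher in MMS D7 than in MMS D3 by 1.22 ± 0.20 (adjusted p = 0.000685). Of the 11 calls in that comparison, this one alone held under all 14 alternatives, with adjusted p of 0.000119 to 0.0241.

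Tspan15, a tetraspanin and also a lining marker, behaved alike at a smaller size. It was at 38.6, 29.7 and 34.5 FPKM in MMS D3 and 59.7, 54.4 and 42.0 FPKM in MMS D7, against 99.4, 117.5 and 101.2 FPKM in Control. R1 was at 111.7 to 124.9 FPKM and R2 at 67.8 to 115.5 FPKM. The rise of MMS D7 over MMS D3 was 0.58 ± 0.18 (adjusted p = 0.0263), and the adjusted p passed 0.05 in 5 of 14 alternatives, up to 0.111. Of the other 3 listed lining genes, Hbegf and Itga6 were also called lower at MMS D3, while Htra4 was not, and none of the 3 was lowered enough in MMS D14 to be a member.

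Aldh1a3, a retinaldehyde dehydrogenase, and Gpr1, a chemerin receptor, had a similar course. Aldh1a3 was at 17.3, 16.4 and 12.2 FPKM in MMS D3, against 47.3, 57.6 and 55.8 FPKM in Control. Its log2 change was -1.75 ± 0.17 at MMS D3 (adjusted p = 1.2e-06) and -1.23 ± 0.17 at MMS D7 (adjusted p = 1.53e-05). In MMS D7 against MMS D3 it was higher by 0.53 ± 0.17, with adjusted p = 0.0317, a call lost in 5 of 14 alternatives. Gpr1 was at 10.6, 9.82 and 8.37 FPKM in MMS D3, against 31.3, 42.6 and 47.3 FPKM in Control, a change of -1.95 ± 0.22 (adjusted p = 6.81e-06). Its difference between MMS D7 and MMS D3, 0.44 ± 0.22, did not pass with all libraries (adjusted p = 0.135) and was 0.67 without the 5 that stand apart (adjusted p = 0.0182).

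Endothelial members differed in their course. Cldn5, the tight junction protein of blood vessels, was at 20.2, 26.3 and 28.4 FPKM in MMS D14, against 57.3, 58.4 and 41.9 FPKM in Control. At MMS D3 and MMS D7 it was at 49.9 to 74.8 and 45.7 to 50.2 FPKM, and its changes of 0.21 and -0.10 were not called. Gpihbp1, which carries lipoprotein lipase across the capillary wall, was at 77.5, 89.67 and 99.99 FPKM in MMS D3 and 67.6, 62.6 and 54.9 FPKM in MMS D7, against 96.6, 90.2 and 77.9 FPKM in Control. It was lower in MMS D7 than in Control (log2 change -0.51 ± 0.16, adjusted p = 0.00826) and than in MMS D3 (-0.52 ± 0.16, adjusted p = 0.0256), where the second call was lost in 6 of 14 alternatives. In MMS D14 it was at 31.4, 38.5 and 34.0 FPKM, below every sample of every other group.

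Rgcc, a cell cycle regulator of the endothelial list, had fallen earlier. It was at 229 to 286 FPKM in MMS D3 and 162 to 202 FPKM in MMS D14, against 450 to 530 FPKM in Control. The change at MMS D3 was -0.87 ± 0.18 (adjusted p = 0.00106), and all R1 samples, at 553 to 631 FPKM, lay above all Control samples. Of the 7 listed endothelial genes, 3 were members. Kdr, Fabp4 and Car4 were lowered in MMS D14 too but were no members. Their L was -0.46, -1.17 and 0.11 in R1 and -0.37, -0.91 and -1.11 in R2. Robo4 was not lowered enough in MMS D14 to be a member. Of the 7 listed endothelial genes, 2 were called lower at MMS D3 and 5 at MMS D7. Among all genes, 39.6% and 61.6% were called lower there. Cd300lg and Hspa12b, which were grouped with these after their values were seen, had fallen by MMS D7, with log2 changes of -0.98 and -0.56.

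**Figure D4:**
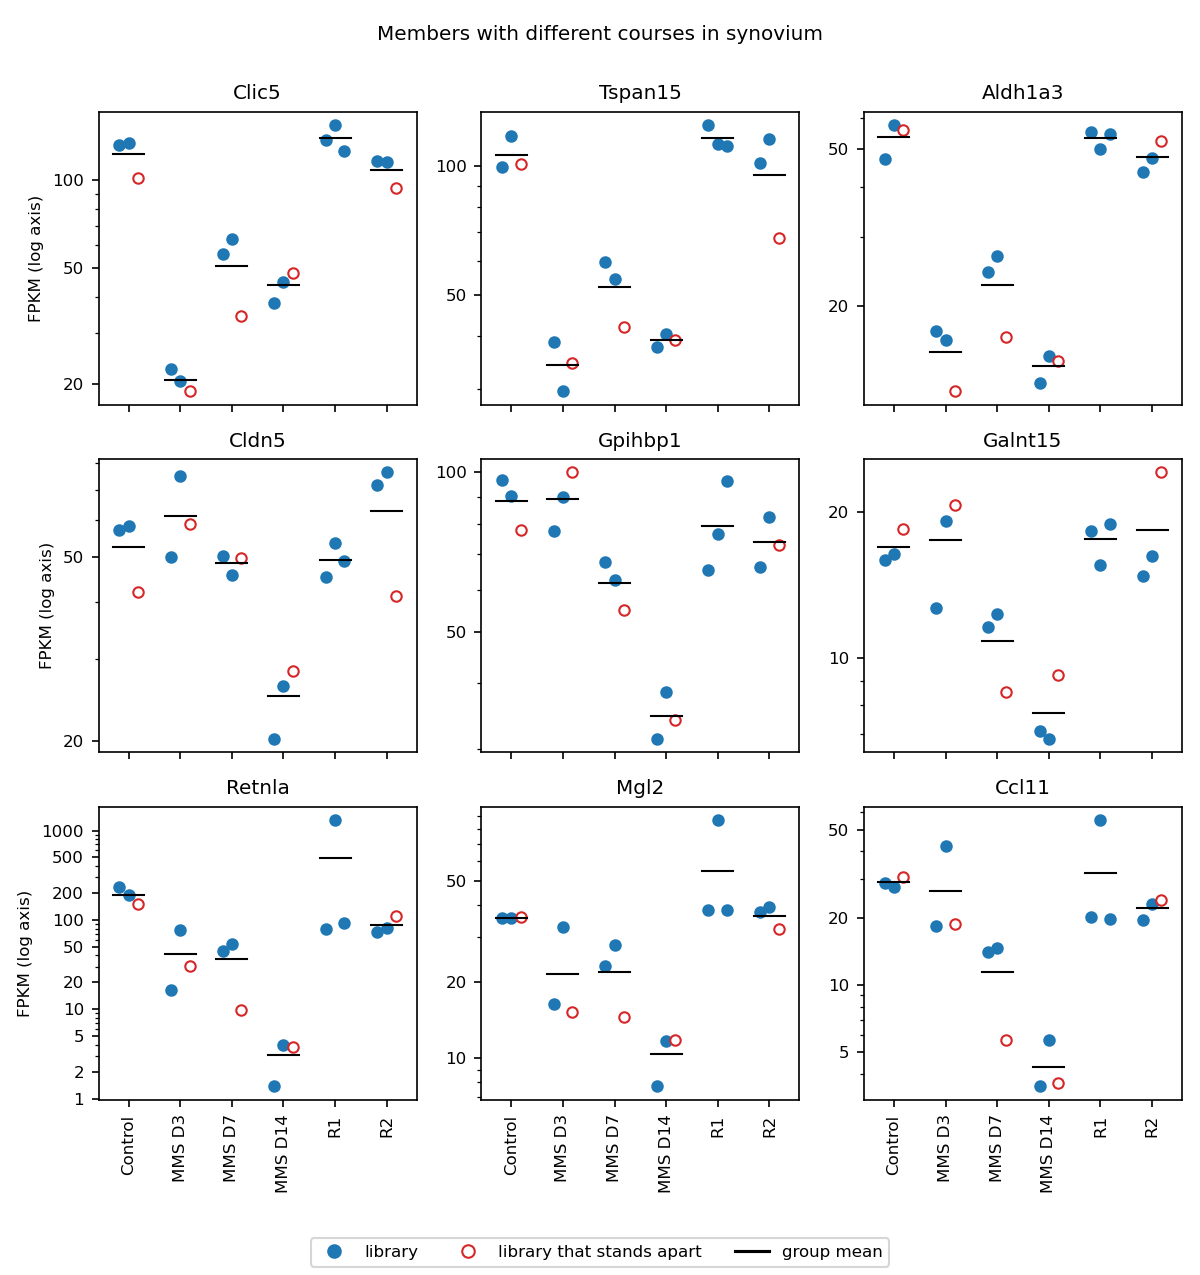
FPKM (log axis) in each synovium library of 9 members, by group, with the group mean as a bar and open red circles for the libraries that stand apart. Clic5, Tspan15 and Aldh1a3 are low from MMS D3 on, Cldn5, Gpihbp1 and Galnt15 are near Control at MMS D3, and Retnla, Mgl2 and Ccl11 are high in R1 replicate 2.

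Of the 8 listed genes of a resident macrophage list, 4 were members: Retnla, Mgl2, Ccl24 and Cd209a, the last also a lectin of dendritic cells. Lyve1, Timd4, Fcna and Clec10a of that list were no members. Retnla, a secreted resistin-like protein of alternatively activated macrophages, had the lowest L of all members in MMS D14. It was at 1.37, 3.96 and 3.79 FPKM in MMS D14, against 236.7, 190.6 and 150.1 FPKM in Control. R1 gave 78.7, 1319 and 93.6 FPKM and R2 73.0, 81.2 and 109.4 FPKM. Only R1 replicate 2 reached above Control, so the R1 mean of 497 ± 712 FPKM (SD, n = 3) was set by that library, and without it Retnla, H2-Q7, Ccl24, Mbp and Hba-a2 were no members. All R2 samples of Retnla lay below all Control samples.

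R1 replicate 2 also stood out in other genes. Mgl2, a macrophage lectin, was at 87.1 FPKM there and at 38.4 and 38.3 FPKM in the other R1 samples, against 35.6 to 36.2 FPKM in Control. Ear2, an eosinophil-associated ribonuclease, was at 42.3 FPKM in it and 10.7 and 15.4 FPKM in the others, against 7.20 to 9.80 FPKM in Control. Ccl11, the eosinophil chemokine eotaxin, was at 55.4 FPKM in it and 20.3 and 19.8 FPKM in the others, against 27.7 to 30.7 FPKM in Control. The summed resident macrophage list ran from 245.8 to 1607 FPKM over R1, against 366.3 to 465.6 FPKM in Control. That list holds Retnla and Mgl2, and Retnla alone gave 1319 FPKM of the highest sum. The range is thus no separate measure of macrophages. Why R1 replicate 2 stood out was not tested.

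At MMS D3, 39.6% of all genes were called lower and 16.3% higher, and at MMS D7 61.6% were called lower. Of the 8 listed resident macrophage genes, 6 were called lower and 1 higher at MMS D3, and 7 lower at MMS D7. Clec10a, a lectin and no member, was the higher one, with L of 0.83. Timd4 and Fcna, also no members, had L of -0.67 and -1.05 in R1 and of -0.74 and -1.02 in R2. At MMS D3, the members Retnla, Mgl2, Ccl24 and Cd209a were lower than in Control, with log2 changes of -2.45, -0.80, -1.04 and -0.70 and limma adjusted p of 0.0209, 0.0422, 0.000929 and 0.00994. Without the 5 libraries that stand apart, Retnla and Mgl2 were called at neither MMS D3 nor MMS D7, and Ccl11 was not called at MMS D7. With all libraries the 4 were called at MMS D7 as well, where Ear2 was not (-0.63, adjusted p = 0.173), as at MMS D3 (-0.10, adjusted p = 0.846). Ccl11 was not called at MMS D3 (-0.23 ± 0.38, adjusted p = 0.62) and was lower in MMS D7 than in MMS D3 (-1.13 ± 0.38, adjusted p = 0.0365). Its levels were 14.1, 14.7 and 5.70 FPKM in MMS D7 and 18.5, 42.2 and 18.9 FPKM in MMS D3. That call was lost in 6 of 14 alternatives. Ccl27a, a chemokine that shares exon sequence with Il11ra1 on the other strand, had fallen by MMS D3, by 1.13 on the log2 scale (adjusted p = 0.0239). Its MMS D14 samples, at 4.28, 5.48 and 2.17 FPKM, overlapped with 12.3, 12.6 and 5.32 FPKM in Control.

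Mbp, myelin basic protein, was at 11.8, 11.7 and 10.1 FPKM in MMS D14, against 28.5, 36.8 and 25.1 FPKM in Control. The MMS D14 samples lay below every Control sample. It was not called at MMS D3 (-0.37, adjusted p = 0.116) and had fallen at MMS D7 (-0.84, adjusted p = 0.000818).

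Matrix and secreted-protein genes made up 7 members, grouped after their values were seen. Of these, 5 had fallen at MMS D3 and 6 at MMS D7, where 39.6% and 61.6% of all genes were called lower. Among all 69 members, 63.8% and 84.1% were called lower there. The 12 listed matrix protease and inhibitor genes ran mostly the other way, with 0 lower and 8 higher at MMS D3 and 2 lower (Timp3 and Timp4) and 9 higher at MMS D7. Among all genes, 16.3% and 24.1% were called higher at MMS D3 and MMS D7. Pcsk6, a proprotein convertase, was at 133.0, 137.1 and 136.7 FPKM in MMS D3, against 285.8, 341.1 and 287.0 FPKM in Control. Its change was -1.16 ± 0.19 (adjusted p = 0.000189), and R1 and R2 lay at 307 to 358 and 318 to 342 FPKM. Ccdc3, a secreted protein, changed by -1.43 ± 0.21 at MMS D3 (adjusted p = 6.54e-05). Tnxb, the matrix glycoprotein tenascin X, was at 42.3 to 55.9 FPKM in MMS D14 and 122 to 129 FPKM in R1, against 85.7 to 120.6 FPKM in Control. Cpe, carboxypeptidase E, was called at both MMS D3 (-0.56) and MMS D7 (-0.90), as was Tgm2, a transglutaminase that cross-links proteins (-0.39 and -0.69). Their MMS D3 calls were lost in 6 and 5 of 14 alternatives, with adjusted p of up to 0.213 and 0.107. Timp3, an inhibitor of matrix metalloproteinases, was called at MMS D7 only (-1.09 ± 0.29, adjusted p = 0.00275) and not at MMS D3 (-0.43, adjusted p = 0.218). Its R2 replicate 3 stood at 231.6 FPKM, against 97.1 FPKM in each of the other R2 samples, and it shares exon sequence with Syn3 on the other strand. Fgl2, a fibrinogen-like protein, was called at neither.

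Among enzymes, Glul, glutamine synthetase, was lower in MMS D7 than in MMS D3. It was at 247.4, 266.9 and 207.9 FPKM in MMS D7 and 354.0, 414.4 and 567.9 FPKM in MMS D3. No samples overlapped, and the change was -0.86 ± 0.22 (adjusted p = 0.00888), held in 12 of 14 alternatives. Fmo2, a flavin monooxygenase, changed by -1.0032 ± 0.36 in the same comparison (adjusted p = 0.0429) and Galnt15, which starts mucin-type sugar chains, by -0.63 ± 0.21 (adjusted p = 0.0324). St3gal6, a sialyltransferase, changed by -0.56 ± 0.20 (adjusted p = 0.04). The last 3 calls were lost in 6, 7 and 6 of 14 alternatives. Cyp4b1, a cytochrome P450 of the xenobiotic list, had fallen at both MMS D3 (-0.55) and MMS D7 (-0.87). So had Cyp27a1, the mitochondrial sterol 27-hydroxylase (-0.73 and -0.68), and Car11, a carbonic anhydrase-related protein (-0.66 and -0.81). The MMS D3 calls of Cyp4b1 and Car11 were each lost in 6 of 14 alternatives, with adjusted p of up to 0.107 and 0.172. All 19 listed glutathione and xenobiotic genes were lowered, and Cyp4b1 and Fmo2 were the members among them. The fatty acid synthesis, fatty acid oxidation and branched-chain amino acid lists, by contrast, had 20, 16 and 16 genes in the table, all lowered and with 0 members.

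Cox8b, a cytochrome oxidase subunit of brown fat and muscle, had a lower L in MMS D14 than any other enzyme of the set. It was at 16.7, 25.1 and 28.6 FPKM in MMS D14, against 253.4, 212.6 and 162.5 FPKM in Control, and at 159 to 186 FPKM in R1 and 86.6 to 157 FPKM in R2. Every R2 sample lay below every Control sample. Cidea, a brown fat gene that was not a member, was at 11.8 to 15.2 FPKM in R1, against 19.3 to 49.9 FPKM in Control. The 3 listed muscle genes summed to 45.0 to 252.8 FPKM in MMS D14, against 43.9 to 161.5 FPKM in Control, so the muscle sums of these groups overlapped. They were 29.4 to 34.4 FPKM in MMS D3, 25.2 to 29.8 FPKM in MMS D7, 20.4 to 30.6 FPKM in R1 and 25.6 to 32.3 FPKM in R2, all below every Control sample, and their part in the Cox8b values was not tested. Cox8b had fallen at MMS D3 and MMS D7, with log2 changes of -1.85 and -1.65.

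Engase, an enzyme that cleaves N-glycans, lay above Control in R1 and R2. It was at 5.02, 5.95 and 7.75 FPKM in MMS D14, against 14.4, 15.1 and 11.5 FPKM in Control. R1 was at 26.4, 20.4 and 22.6 FPKM and R2 at 37.5, 42.8 and 20.9 FPKM, all above every Control sample. Its changes at MMS D3 and MMS D7 were -1.13 ± 0.22 (adjusted p = 0.0007) and -1.12 ± 0.22 (adjusted p = 0.000256), and its log2 change in MMS D7 against MMS D3 was 0.01.

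Among transporters and receptors, Abca8a, a lipid transporter, was at 6.77, 7.31 and 6.14 FPKM in MMS D7 and 11.3, 17.0 and 14.9 FPKM in MMS D3, against 21.8, 24.9 and 25.6 FPKM in Control. The change in MMS D7 against MMS D3 was -0.98 ± 0.26 (adjusted p = 0.0126), held in 13 of 14 alternatives. Reads of Abca8a and its close relative Abca8b, also a member, may be partly exchanged. Scara5, a ferritin receptor, had a change of -1.55 ± 0.25 at MMS D7 (adjusted p = 4.61e-05). Fcgrt, the neonatal Fc receptor, was at 127 to 161 FPKM in MMS D14, against 277 to 317 FPKM in Control. H2-Q7, a class I histocompatibility gene with close copies whose reads may be mixed, had also fallen by MMS D3 (-0.81, adjusted p = 0.00672). Lifr, the leukaemia inhibitory factor receptor, had changes of 0.03 at MMS D3 and -0.47 at MMS D7 that were not called.

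Genes of the cytoskeleton, adhesion and signalling made up 11 members, grouped after their values were seen. At MMS D7 all 11 had fallen, by 0.51 to 1.19 on the log2 scale, and at MMS D3 7 had. Among all genes 61.6% and 39.6% were called lower there, and among all 69 members 84.1% and 63.8%. Dmtn, the actin-bundling protein dematin, changed by -0.99 ± 0.28 at MMS D3 (adjusted p = 0.00693). Hipk2, a nuclear kinase, was at 5.32 to 5.66 FPKM in MMS D14, against 15.1 to 15.8 FPKM in Control. Lims2, Ablim1, Snrk, Epb41l4b and Arl4d were the other early ones. Ablim3, an actin-binding LIM protein, was called lower in MMS D7 than in MMS D3 (-0.50 ± 0.17, adjusted p = 0.0319), a call lost in 8 of 14 alternatives. Rasgrp2, Dock9 and Tns2 were called at MMS D7 and not at MMS D3.

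The 12 remaining members were also grouped after their values were seen, and 10 had fallen at MMS D3 and 11 at MMS D7. Among all genes 39.6% and 61.6% were called lower there, and among all 69 members 63.8% and 84.1%. Hba-a2, an alpha globin gene of red cells, was called at neither, with 224 to 616 FPKM in MMS D14 against 727 to 1329 FPKM in Control. Its near-identical copy Hba-a1 was lowered too but was no member, at 378 to 1048 FPKM in MMS D14 against 1506 to 1963 FPKM in Control, and reads of the pair may be exchanged. The predicted gene Gm21320, annotated as Mup22 in GENCODE and named after its values were seen, had the next lowest L after Retnla. It was at 7.50, 22.9 and 3.54 FPKM in MMS D14, against 519, 433 and 546 FPKM in Control, and belongs to a family of close copies whose reads may be mixed. Rtn1, a reticulon of the endoplasmic reticulum, changed by -0.97 ± 0.15 at MMS D3 (adjusted p = 9.64e-05). Cbx7, a Polycomb protein, was called at MMS D7 only (-0.85 ± 0.26, adjusted p = 0.00653). Mturn, Prrt1, Nrip2, Tspan13, Ushbp1, Gabarapl1, Ms4a8a and Etl4 were called at both.

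Cartilage samples took no part in choosing the genes, and 15 of the 69 members were listed among the 1606 cartilage genes. Those genes are a selected set too, of which 97.3% were called at MMS D28. The cartilage values are a normalised signal of unstated unit and were tested only within their own table. At MMS D3, 3 members were lower and 2 higher, against 11% and 12.9% of all cartilage genes. At MMS D7, 3 were lower and 0 higher, against 15.6% called lower and 6.79% higher. At MMS D14, 10 were lower and 0 higher, against 28% called lower and 25.5% higher, and the median log2 change was -0.63 for the 15 members and 0.03 for all genes. At MMS D28, 12 were lower and 2 higher, against 54.6% and 42.7%. In R1, 6 were lower and 1 higher, against 33.3% and 36%. With each sample centred, the R1 calls were 4 lower and 2 higher, against 19.2% and 38.9%. In R2 limma called 0 of 15, against 0.685% lower and 0.0623% higher, and 2 had an unadjusted p under 0.05. The cartilage genes as a whole were not counted at that unadjusted p, so the 2 say nothing about the members as a set.

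**Figure D5:**
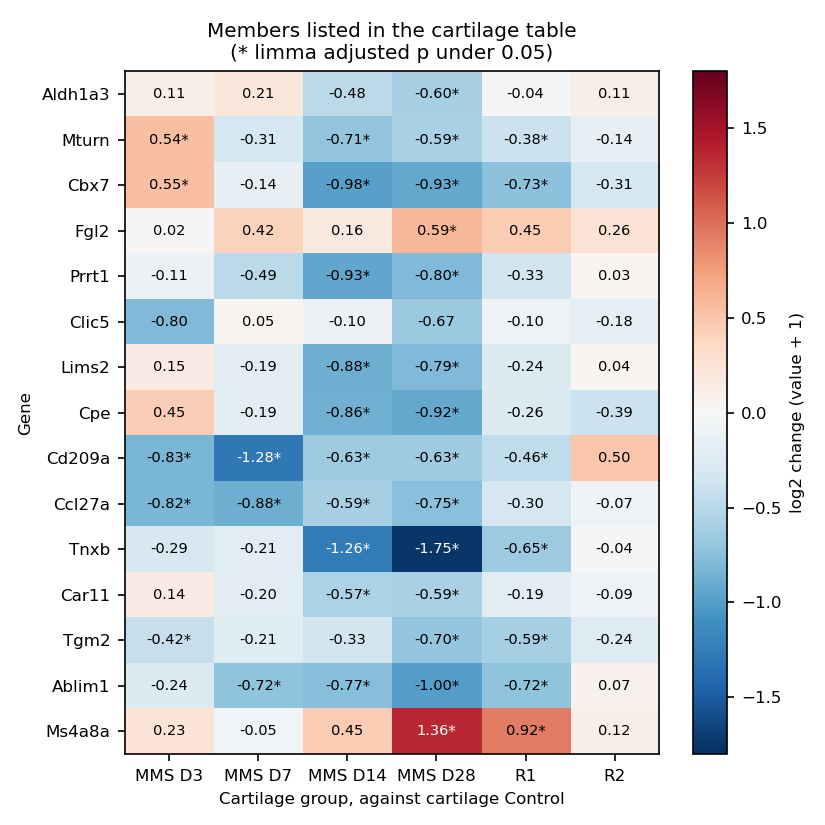
Log2 change against cartilage Control (value plus 1) of the 15 members listed in the cartilage table, by group, with an asterisk for a limma adjusted p under 0.05. Tnxb reaches -1.75 at MMS D28 and -0.04 in R2, while Ms4a8a is 1.36 at MMS D28.

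Tnxb had the lowest log2 change of the 15 in cartilage, at MMS D28. It was at 4.25 and 2.48 in MMS D14 and at 1.77 and 2.34 in MMS D28, against 8.29 and 10.2 in Control. The changes were -1.26 (adjusted p = 0.000626) and -1.75 (adjusted p = 5.88e-05). R1 was also lower, at 4.41 and 6.85 (-0.65, adjusted p = 0.02), and R2 was at 8.69 and 9.22, within the range of Control. The R1 call was lost without R1 replicate 1 (adjusted p = 0.183) and without Control replicate 2 (adjusted p = 0.109).

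Cpe, Ablim1, Prrt1, Cbx7 and Mturn were also lower in cartilage at MMS D14, with changes of -0.86, -0.77, -0.93, -0.98 and -0.71, and these calls held under all 10 alternatives, as did that of Tnxb. Cbx7 and Mturn had been higher at MMS D3. Mturn was at 8.92 and 9.45 in MMS D3 and at 3.37 and 3.16 in MMS D14, against 5.96 and 6.00 in Control. Its change at MMS D3 was 0.54 (adjusted p = 0.00621), a call lost without MMS D3 replicate 2 (adjusted p = 0.0562). Cbx7 was at 16.7 in both MMS D3 samples, against 11.4 and 10.8 in Control (0.55, adjusted p = 0.0232), a call lost without any 1 of the 4 libraries compared, with adjusted p of up to 0.13.

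Ccl27a, a chemokine, and Cd209a, a C-type lectin of dendritic cells, were lower in cartilage at MMS D3, MMS D7, MMS D14 and MMS D28. Cd209a was at 2.31 and 2.04 in MMS D3 and 1.64 and 1.02 in MMS D7, against 4.32 and 4.95 in Control. Its changes were -0.83 (adjusted p = 0.0047) and -1.28 (adjusted p = 0.000197). In R2 it was at 7.31 and 6.62, above both Control samples, with a change of 0.50 that was not called. Ccl27a changed by -0.82 at MMS D3 and -0.88 at MMS D7 (adjusted p = 0.0061 and 0.00296). Both genes' calls at MMS D3 and MMS D7 held under all 10 alternatives.

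The remaining calls include 2 members that were higher in cartilage. Ms4a8a, a membrane protein of the MS4A family, was at 12.4 and 6.78 in MMS D28 and at 5.38 and 7.89 in R1, against 3.51 and 2.52 in Control. Its changes were 1.36 (adjusted p = 0.00146) and 0.92 (adjusted p = 0.019). Fgl2 was at 10.9 in both MMS D28 samples, against 7.16 and 6.64 in Control (0.59, adjusted p = 0.0279). The R1 call of Ms4a8a was lost without R1 replicate 2 or Control replicate 2, and the MMS D28 call of Fgl2 without any 1 of the 4 libraries compared. Clic5, the leading lining gene in synovium, was at 1.18 to 4.77 in all cartilage samples and was called in no cartilage comparison.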

How the data were processed

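RNA of mouse synovium and cartilage was sequenced, with RNA taken by Trizol per the labels' protocols, and the submitters' processing notes name HISAT2 and mm10. The synovium values are FPKM made by the authors, per the file headers. The deposited cartilage values are a normalised signal whose unit is not given in the sources used here, and each table was tested on its own. Library depth is unknown in both. No column was left unmapped.

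Differences were tested with limma 3.58.1 in R 4.3.3, with a trend, on log2(value + 1), with all groups of a tissue in one fit and Benjamini-Hochberg adjustment over the whole table at 0.05. Log2 changes on this scale understate those of low genes. A filter of 1 removed no gene, so the alternative with no filter repeats the main fit and keeps every call by construction. The steps were tested on simulated data. Alternatives were a pseudocount of 0.1, no filter, centring, no trend, a replicate block, the 2 groups alone, leaving out each replicate and, added after seeing the data, a term for the 5 libraries that stand apart and their omission. Correlations between synovium libraries were taken on each gene's log2(value + 1) minus its group mean. On these deviations, same-numbered libraries correlated over 0.1 in all 3 pairs of MMS D3 and Control. They did not in all pairs of the other comparisons tested in synovium. Among groups not compared by a test, all 3 pairs were over 0.1 between MMS D14 and Control or MMS D3. The same held between R2 and Control, MMS D3 or MMS D14. No 2 synovium libraries shared more than 0.51% of values.

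The members and gene lists were chosen with earlier results of these data known. By rule, the text names the 10 members with the lowest L in MMS D14, the 10 highest in Control, up to 4 members of each gene list, and those with the smallest adjusted p in each comparison, up to 5 in each direction. It also names the 3 genes on either side of each threshold, and no predicted gene. Other members, and the predicted genes Gm21320, Gm46840 and Gm2023, are named for completeness, after their values were seen. Annotation is from GENCODE M21. Some genes are not reported here.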

Additional observations from a re-analysis of the deposited data

Results flagged for a closer look

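Results below had all samples of one tissue above their Control and all of the other tissue below it, for the same group. The difference was not tested, and the tables of the 2 tissues were normalised separately. Each value is the log2 change in synovium minus that in cartilage. At MMS D3, Mturn differed by -1.48, with -0.94 in synovium and 0.54 in cartilage. Lims2 differed there by -0.79, with -0.64 and 0.15, and Car11 by -0.80, with -0.66 and 0.14. At MMS D14, Ms4a8a differed by -1.46, with -1.0043 in synovium and 0.4526 in cartilage. In R1, Tnxb differed by 0.87, with 0.22 in synovium and -0.65 in cartilage, and Car11 by 0.48, with 0.30 and -0.19. The MMS D14 and R1 values of synovium were used to choose the genes. Groups held 2 or 3 samples, too few for a check of single samples that lie far from the others.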

How the results depend on the processing

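Of 1972 alternative values for 152 called gene results, 1777 kept their direction and their side of the threshold, 195 kept their direction only and 0 turned round. The values with no filter are among the 1777 and were fixed in advance, since the filter removed no gene. In MMS D7 against MMS D3, the 11 calls became 5 with each sample centred, 4 with the 2 groups alone and 2 to 20 when 1 library was left out. All genes were called lower and higher at 9.51% and 16.1% with centring and at 3.65% and 6.2% with the 2 groups alone. They were called at 5.94% and 8.66% without MMS D3 replicate 2 and at 32.1% and 18.6% without MMS D3 replicate 1. Leaving out 1 library gave 33 to 41 calls at MMS D3 and 49 to 57 at MMS D7. The 33 came without MMS D3 replicate 1. All genes were then called lower and higher at 26.9% and 14.2%, against 39.6% and 16.3% in the main fit. The 49 came without MMS D7 replicate 3, with all genes at 56.4% and 22.7%, against 61.6% and 24.1%. In R2 against R1, the 0 calls became 6 without the 5 libraries that stand apart, where 1.19% of all genes were called. In cartilage, leaving out 1 library left 1 sample in a group. Fewer members were then called at MMS D3 and in R1, whichever of the libraries compared was left out. At MMS D7 their number stayed the same or, without MMS D7 replicate 2, rose. The share of all cartilage genes called fell in each of these fits. The number of members was 27 with centring, 41 at a share of 0.1, 123 at a share of 0.3, 93 at a pseudocount of 0.1 and 64 to 85 when 1 library was left out. The cause was not tested.

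With a replicate block, the synovium calls were 46 at MMS D3, 59 at MMS D7, 17 in MMS D7 against MMS D3 and 0 in R2 against R1. All genes were called lower and higher at 44.1% and 18%, 63.2% and 24.1%, and 25.5% and 15.5% in the first 3. Correlations were taken on deviations from the group mean, not on the levels themselves. Of 45 pairs of same-numbered libraries, 26 correlated over 0.1, with a range from -0.17 to 0.66. Among libraries of the other groups, 11 of 18 libraries correlated best with one of their own number. All 3 pairs were over 0.1 for MMS D3 and Control (0.13, 0.13 and 0.40), but not for the other comparisons tested in synovium, and the labels do not say what the numbers mark.

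The tables give no depth, and cartilage has 2 samples a group.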
